A study of Mus musculus with 5 samples.

Results

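Pitx1, Pitx3, Otx1, Otx2, Gsc, Alx1 and Alx4 encode homeodomain transcription factors that pattern the head, jaw, eye and limb. These 7 of 21938 protein-coding genes of the GENCODE annotation were taken by name from the Pitx, Otx, Gsc and Alx families. The repressive trimethyl mark H3K27me3 of histone H3 was profiled by chromatin immunoprecipitation and sequencing (ChIP-seq) in the mesenchyme of molars from wildtype mice of the C57BL/6 strain, taken at postnatal day 3. The epithelium had been dissected away before the chromatin was prepared, and there was neither a mutant nor a second time point. The 5 libraries were 2 with an H3K27me3 antibody, 2 of input chromatin and 1 with a nonspecific IgG antibody. No label says whether separate animals or pooled tissue gave the 2 H3K27me3 libraries, and each SD below therefore measures only how far these libraries lay apart.

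H3K27me3 is placed by Polycomb repressive complex 2, whose catalytic subunit is Ezh2, and is known for its place at developmental regulators that a cell lineage does not use. It often spreads over a whole gene and its surroundings, most of all where the DNA is rich in CpG dinucleotides. Pitx, Otx and Gsc proteins share a lysine in the DNA-recognition helix that sets their binding preference, while Alx proteins carry a glutamine there.

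Peaks had been called in 3 lists, namely H3K27me3 replicate 1 against its input, the same library against IgG, and replicate 2 against its own input. The second list is no further replicate, since it rests on the same immunoprecipitated library. Each gene together with flanks of 5 kb is called the locus, and the share of its bases under peaks is called the covered share. The H3K27me3 libraries kept 30369351 and 49947919 tags after removal of duplicates. Depth and tag length differed between them together, so neither can be told apart from the replicate. Member peaks were short and thin in tags, with a median length of 146.5 and 282 bp in replicates 1 and 2 and a median pileup of 4.45 and 6.43 tags. Over all peaks of these lists the median lengths were shorter still, at 119 and 181 bp. Of member peaks, 54.2% and 56.5% lay near the lowest pileup of their list, compared with 77.3% and 72.7% of all peaks. In bulk chromatin, fewer cells with the mark and less of the mark per cell cannot be told apart.

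All 7 loci had a peak in replicate 1, and 5 had one in replicate 2 as well. Replicate 1 placed 48 peaks at the members, its calls against IgG 56 and replicate 2 23 peaks. Against a background of 25% of protein-coding loci in replicate 1, 25.9% against IgG and 35.7% in replicate 2, a peak was present at 7, 7 and 5 of the 7 members. In both replicates it was 5 of 7 members, compared with 15.7% of protein-coding loci. The 5 were Pitx3, Otx1, Otx2, Gsc and Alx4. Of all protein-coding loci, 51% had no peak in any list, and none of the members was among these.

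**Figure D1:**
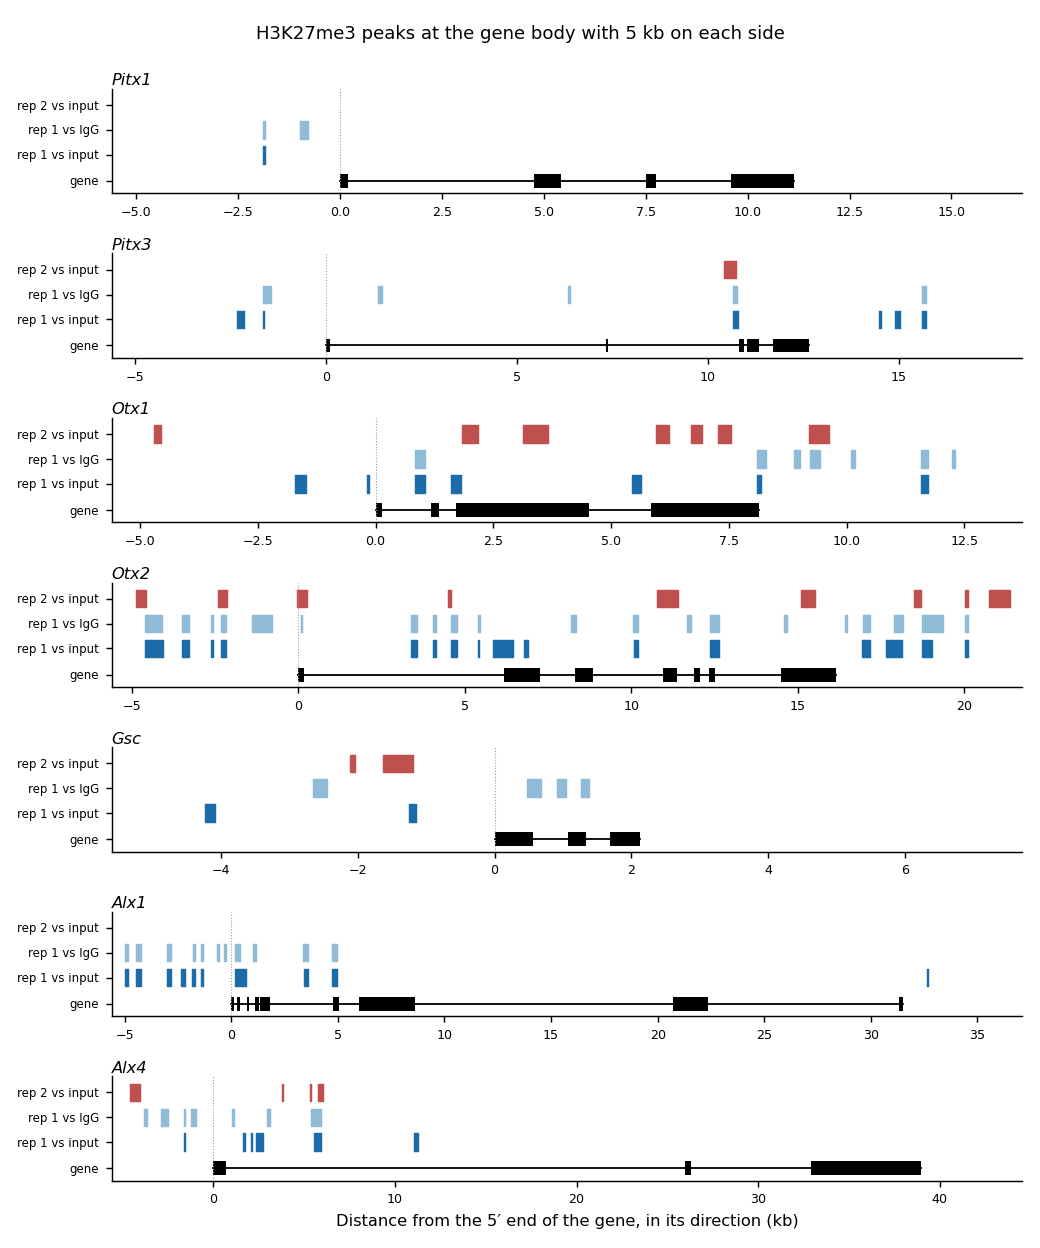
Peaks at the 7 loci, with the distance from the 5′ end of the gene in kb on the x axis, in the direction of the gene, and 1 row for each of the 3 peak lists. Black blocks are exons of all annotated transcripts. Peaks lie upstream, within and downstream of Otx2 in every row, with gaps between them, while the replicate 2 row is empty at Pitx1 and Alx1.

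Single stretches under peaks of both replicates were few, and they are shown because they are the positions called in both libraries. There were 6, all outside annotated untranslated regions and outside the exons of the members. Exons of other genes were not checked. The Gsc stretch lay within the noncoding gene Gm10000, and the upstream Otx2 stretches lay within the noncoding gene Otx2os1. They are given on GRCm38 in the direction of the gene, with CpG dinucleotides in capitals.
Pitx3, intron, chr19:46137580-46137671, minus strand: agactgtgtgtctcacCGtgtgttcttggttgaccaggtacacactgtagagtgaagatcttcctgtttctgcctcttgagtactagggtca
Otx2, downstream, chr14:48653719-48653798, minus strand: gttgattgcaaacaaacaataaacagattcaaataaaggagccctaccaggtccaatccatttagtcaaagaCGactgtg
Otx2, upstream, chr14:48676001-48676125, minus strand: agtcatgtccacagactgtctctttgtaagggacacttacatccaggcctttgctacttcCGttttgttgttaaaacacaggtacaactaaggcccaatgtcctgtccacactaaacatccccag
Otx2, upstream, chr14:48678400-48678432, minus strand: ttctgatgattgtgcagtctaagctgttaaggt
Gsc, upstream, chr12:104474526-104474579, minus strand: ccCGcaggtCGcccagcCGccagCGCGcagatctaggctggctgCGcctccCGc
Alx4, intron, chr2:93648134-93648282, plus strand: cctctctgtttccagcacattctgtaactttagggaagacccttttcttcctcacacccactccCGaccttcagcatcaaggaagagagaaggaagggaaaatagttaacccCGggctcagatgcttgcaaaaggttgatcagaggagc
The Gsc stretch held 7 CpG in 54 bases and was 77.8% G and C. The other 5 held 0 to 2 CpG each and were 38.8% to 49.0% G and C. The Gsc stretch was also the only one of the 6 without a peak in the calls against IgG.

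Otx2, required for the forebrain and the anterior head, had the highest mean covered share of the 7 members. The gene (ENSMUSG00000021848.16) lies on the minus strand at chr14:48657677-48673819. It held 16 peaks in replicate 1, 20 in the calls against IgG and 9 in replicate 2. These took up 13.8%, 15.4% and 10.3% of the locus, a mean of 12.0% ± 2.48 (SD, n = 2) over the replicates called against input, above 99.8% of protein-coding loci. Of its replicate 1 peaks 3 touched exons, 5 lay in introns, 4 upstream and 4 downstream. Of its replicate 2 peaks 3 touched exons, 1 lay in an intron, 2 upstream and 3 downstream. The mark was therefore not gathered at 1 end of the gene in either library.

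Around the Otx2 5′ end the lists differed. A replicate 2 peak of 301 bp spanned the 5′ end itself, and the nearest IgG-called peak began 69 bp inside the gene. The nearest replicate 1 peak against input lay 2182 bp upstream. When peaks at most 5 kb apart were joined, and stretches of at least 3 peaks were kept as domains, replicate 1 had a domain of 22.2 kb with 15 peaks and another of 6.17 kb. Against IgG these became a single domain of 37.9 kb with 26 peaks. In replicate 2 there were domains of 13.0 kb and 10.3 kb.

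Part of the Otx2 locus is shared with 2 noncoding genes, Otx2os1 on the opposite strand and Gm49154. Of the 16 replicate 1 peaks, those upstream and 3 of those in introns also overlapped Otx2os1, so their assignment to Otx2 alone is uncertain. Promoter sequences of RefSeq (GRCm38.p6) matched 3 of the 7 members, Otx2, Gsc and Pitx3. The 250 bases before an internal Otx2 start are shown because a 598 bp replicate 1 peak lay over them. CpG dinucleotides are in capitals.
Otx2, chr14:48667645-48667894, minus strand: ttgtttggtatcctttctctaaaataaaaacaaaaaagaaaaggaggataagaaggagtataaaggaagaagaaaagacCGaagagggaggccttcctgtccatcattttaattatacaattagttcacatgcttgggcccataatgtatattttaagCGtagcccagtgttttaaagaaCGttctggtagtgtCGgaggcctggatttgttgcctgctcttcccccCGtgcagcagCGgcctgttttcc
This stretch held 6 CpG. It had a peak in replicate 1 against input and none in the IgG-called list or in replicate 2.

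Otx1, which acts with Otx2 in the brain and the inner ear, ranked next. The gene (ENSMUSG00000005917.15) lies on the minus strand at chr11:21994764-22002897 and held 7 peaks in each of the 3 lists. The covered share was 6.28% in replicate 1, 5.59% against IgG and 12.3% in replicate 2, with a mean of 9.29% ± 4.27 (SD, n = 2), above 99.6% of protein-coding loci. Replicate 1 covered Otx2 more than Otx1, and replicate 2 covered Otx1 more than Otx2. The difference between their means was smaller than the SD of Otx1 and larger than that of Otx2.

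Although both replicates called 7 peaks at Otx1, no peak of one overlapped a peak of the other. In replicate 2, 5 of the 7 peaks touched exons, in a run from 1834 to 7545 bp after the 5′ end. In replicate 1, 2 touched exons, 2 lay in introns, 2 upstream and 1 downstream. The replicate 1 peak of highest fold enrichment, 3.62 over input, lay downstream at 11576 to 11726 bp from the 5′ end, and it was called against IgG as well, at 3.61. Its sequence is shown because no other Otx1 peak had a higher fold enrichment, with CpG in capitals.
Otx1, downstream, chr11:21991171-21991321, minus strand: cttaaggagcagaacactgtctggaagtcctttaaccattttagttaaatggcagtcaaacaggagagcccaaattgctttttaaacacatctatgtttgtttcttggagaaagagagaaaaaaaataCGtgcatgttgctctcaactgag
This peak held 1 CpG. From the Otx1 5′ end to the nearest peak it was 143 bp in replicate 1, 833 bp against IgG and 1834 bp in replicate 2. Joined peaks formed a domain of 20.2 kb in replicate 1, 10.4 kb against IgG and 7.79 kb in replicate 2. The 5′ flank holds the end of Ehbp1, a gene for an endocytic adaptor, whose body begins 2931 bp from Otx1, and 1 replicate 2 peak there lay within it.

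Gsc, a gene of the gastrula organizer that is later used in first-arch skeletal elements, had a covered share of 2.04%, 5.63% and 4.25% in the 3 lists. Its mean was 3.14% ± 1.56 (SD, n = 2), above 98.8% of protein-coding loci. The gene (ENSMUSG00000021095.5) lies at chr12:104471209-104473330 on the minus strand. Both replicate 1 peaks and both replicate 2 peaks lay upstream, where the noncoding gene Gm10000 starts 1 bp from Gsc and runs the other way. They all overlapped Gm10000 and cannot be assigned to Gsc alone, and the Gsc gene body had 0% in both replicates. Of the 4 IgG-called peaks, 2 touched Gsc exons and 1 lay in an intron, and none of these overlapped a peak called against input. Distances from the Gsc 5′ end to the nearest peak were 1144, 469 and 1196 bp in the 3 lists.

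Alx4, which acts in craniofacial and limb mesenchyme, varied least between replicates among the members with a peak in both. Its covered share was 2.64% in replicate 1, 3.40% against IgG and 2.11% in replicate 2, with a mean of 2.38% ± 0.377 (SD, n = 2), above 98.3% of protein-coding loci. The gene (ENSMUSG00000040310.12) lies at chr2:93642384-93681339 on the plus strand. Of its 6 replicate 1 peaks 5 were intronic and 1 was upstream, and of its 4 replicate 2 peaks 3 were intronic and 1 was upstream. No peak of any list touched an Alx4 exon. The peaks gathered in the 5′ part of the gene, none of them past 11256 bp from the 5′ end, so the part that overlaps Ext2, a heparan sulfate polymerase gene on the other strand, held none. Joined peaks formed a domain in each list, of 18.9 kb in replicate 1, 9.72 kb against IgG and 2.27 kb in replicate 2.

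Alx1, needed in the frontonasal neural crest, was, like Pitx1, marked at its locus in replicate 1 alone. Replicate 1 called 10 peaks against input and 11 against IgG, and 8 of the 10 were overlapped by an IgG-called peak. Replicate 2 called 0 at the locus. The covered share was 4.60%, 4.29% and 0%, a mean of 2.30% ± 3.25 (SD, n = 2), so the spread exceeded the mean. In replicate 1 the peaks lay from -4973 to 4950 bp relative to the 5′ end of the gene (ENSMUSG00000036602.14, chr10:102998707-103030215, minus strand), apart from 1 downstream, and 9 of them formed a domain of 9.92 kb. The nearest replicate 2 peak was 5212 bp upstream, just past the flank. With 10 kb on each side Alx1 had a peak in both replicates. The Alx1 peak of highest fold enrichment in replicate 1, 3.02 in an intron, is shown with its 5 CpG in capitals, as the strongest of the cluster that replicate 2 did not call.
Alx1, intron, chr10:103026606-103026792, minus strand: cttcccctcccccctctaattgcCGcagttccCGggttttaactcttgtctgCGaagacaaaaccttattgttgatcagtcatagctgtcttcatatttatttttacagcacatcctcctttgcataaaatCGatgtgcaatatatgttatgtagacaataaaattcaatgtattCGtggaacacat

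Pitx3, a gene of the lens and of midbrain dopaminergic neurons, had 6 peaks in replicate 1, 5 against IgG and 1 in replicate 2. Peaks took up 2.97%, 2.78% and 1.36% of the locus, a mean of 2.16% ± 1.14 (SD, n = 2), above 98.1% of protein-coding loci. The gene (ENSMUSG00000025229.15) lies at chr19:46135685-46148326 on the minus strand. Its only replicate 2 peak, of 307 bp, lay in an intron 10440 bp after the 5′ end and overlapped the single intronic replicate 1 peak, with fold enrichments of 2.63 and 2.74. The 3 downstream replicate 1 peaks lay within Elovl3, a fatty acid elongase gene that overlaps the Pitx3 end, and they cannot be assigned to Pitx3 alone.

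Pitx1, which acts in the hindlimb and in the mandible and tooth, carried the least. Replicate 1 had 1 peak of 46 bp, 1843 bp upstream of the gene (ENSMUSG00000021506.7, chr13:55825051-55836192, minus strand). It was called against IgG at the same position, beside a second IgG-called peak 793 bp upstream. Replicate 2 had none at the locus, and its nearest peak was 13153 bp from the 5′ end. With 10 kb on each side Pitx1 had a peak in both replicates. The covered share was 0.218%, 1.14% and 0%, with a mean of 0.109% ± 0.154 (SD, n = 2), above 62.7% of protein-coding loci. By their means the other 6 members were above 98.1% or more, which for Alx1 rested on replicate 1 alone. The 46 bp equal the fragment length that MACS modelled for this library and are the shortest peak its list can hold.

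**Figure D2:**
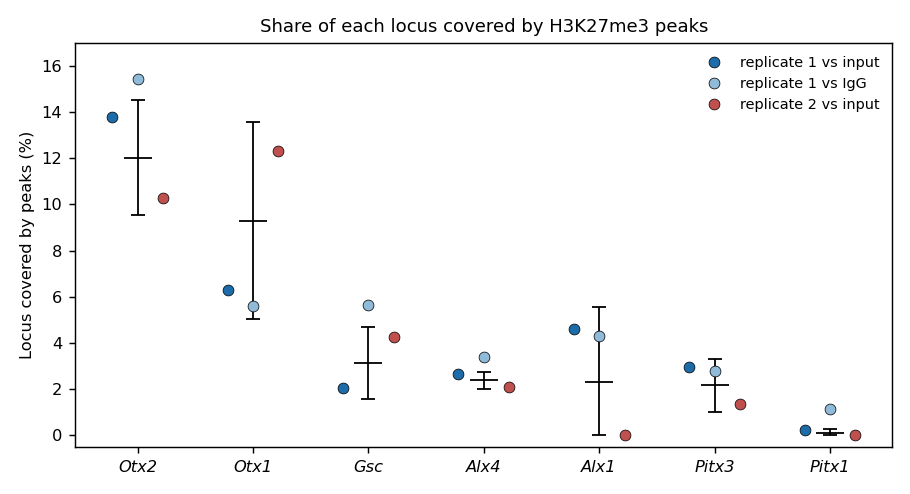
Covered share of each locus in percent, with a point for each peak list. Black bars give the mean and SD of the 2 replicates against input, with the lower end of the error bar stopped at 0. Otx2 and Otx1 lie at 6.28% or higher in both replicates, and Alx1 falls from 4.60% in replicate 1 to 0% in replicate 2.

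Placed in order of the mean, the members ran Otx2, Otx1, Gsc, Alx4, Alx1, Pitx3 and Pitx1. With 2 libraries no test of this order was made. Between neighbours, the replicate values of Otx1 lay above those of Gsc, and those of Pitx3 above those of Pitx1, without overlap. The values of the other neighbours overlapped, so that Otx2 was not separated from Otx1, nor Gsc, Alx4, Alx1 and Pitx3 from each other. The median covered share over the 7 members was 2.97% in replicate 1 and 2.11% in replicate 2, while over all protein-coding loci it was 0% in each.

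**Figure D3:**
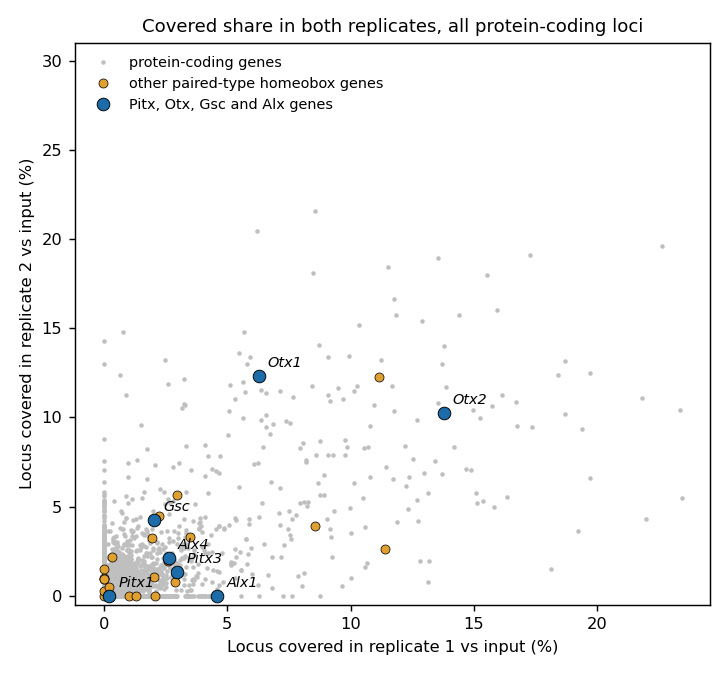
Covered share in replicate 1 on the x axis and in replicate 2 on the y axis, in percent, each point being a protein-coding locus. The 7 members are blue and 21 other paired-type homeobox genes are orange. Otx2 and Otx1 lie away from the axes, while Alx1 and Pitx1 lie on the x axis, at 0% in replicate 2.

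Peaks were then counted at the 5′ ends of the members. A peak within 1 kb of the 5′ end was present at 2 members in replicate 1 (Otx1 and Alx1), at 6 against IgG and at 1 in replicate 2 (Otx2). The background over protein-coding genes was 3.87%, 4.52% and 4.16%. In both replicates it was 0 of 7 members, compared with 1.04% of protein-coding genes. Within 5 kb of the 5′ end, Otx1, Otx2, Gsc and Alx4 had a peak in both replicates, 4 of 7 members against a background of 4.31%. When every annotated transcript start was allowed, Pitx3, Otx1 and Otx2 had such a peak in both replicates, 3 of 7 members against a background of 1.91%. Otx2 has 10 annotated starts, Alx1 8, and the other 5 members 1 to 3. A joined domain was present in both replicates at Otx1, Otx2 and Alx4, 3 of 7 members, compared with 1.22% of protein-coding loci. Pitx3 had a domain of 5.07 kb in replicate 1 and 17.4 kb against IgG, and Gsc and Pitx1 had domains against IgG alone, of 4.04 and 9.10 kb.

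Of the 48 replicate 1 peaks at the members, 6 (12.5%) were overlapped by a replicate 2 peak by at least 1 base. Over the whole replicate 1 list this share was 2.85%. In the other direction it was 6 of 23 (26.1%), compared with 1.9% of all nuclear replicate 2 peaks. The 6 comprised 3 at Otx2 and 1 each at Pitx3, Gsc and Alx4. The calls against IgG used the same immunoprecipitated library, so overlap with them does not measure agreement between libraries. Of the 48, 31 (64.6%) were overlapped by an IgG-called peak, compared with 51% of the whole list. This share was 14 of 16 at Otx2 and 8 of 10 at Alx1, and 0 of 2 at Gsc.

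In median strength, member peaks lay slightly above all peaks of their lists. Their median fold enrichment over the control was 2.81 in replicate 1, 2.70 against IgG and 2.55 in replicate 2, while the medians of all peaks were 2.63, 2.66 and 2.45. A fold enrichment of 3 or higher was reached by 9 of 48 member peaks in replicate 1, 9 of 56 against IgG and 0 of 23 in replicate 2, compared with 8.96%, 10.7% and 1.56% of all peaks of these lists. The highest was 3.72, at an Otx2 peak of 230 bp that began 16940 bp after the 5′ end, with a −log10 p of 4.06. Against IgG the overlapping peak had 2.90, and replicate 2 called none there. Fold enrichments depend on depth and were compared within a list only.

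Peaks were followed to 50 kb on each side of the 5′ ends, in bins of 5 kb, to see how far the coverage reached. In replicate 1 every bin from 10 kb upstream to 35 kb after the Otx2 5′ end held some coverage. In replicate 2 coverage ran from 10 kb upstream to 25 kb after it, with 0% in the bin from 5 to 10 kb. In the bin just upstream of its 5′ end, 18.6% and 11.8% of bases were covered in replicates 1 and 2, and in the bin from 15 to 20 kb after it 19.6% and 12.5%. Beyond 10 kb upstream of Otx2 neither replicate had a peak within the window. Otx1 was covered most from 5 to 10 kb after its 5′ end in replicate 2, at 24.2%, where replicate 1 had 5.6%.

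At Alx1 the replicates were covered in adjoining bins. Replicate 1 had 19.2% in the bin just upstream of the 5′ end and 18.1% in the bin just after it, and replicate 2 had 0% in both. From 10 to 5 kb upstream of Alx1 replicate 2 had 7.88% and replicate 1 had 0%. Alx4 was covered to 7.40% and 7.24% from 5 to 10 kb after its 5′ end, and a separate bin from 45 to 40 kb upstream had 2.04% and 10.4%. Around Pitx1 and Pitx3 no bin exceeded 6.82% in either replicate. Within 50 kb of the 5′ end, Otx2 had 24 and 11 peaks in replicates 1 and 2, Otx1 11 and 12, Alx4 12 and 5, Gsc 5 and 7, Alx1 11 and 2, Pitx3 6 and 1, and Pitx1 4 and 2.

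**Figure D4:**
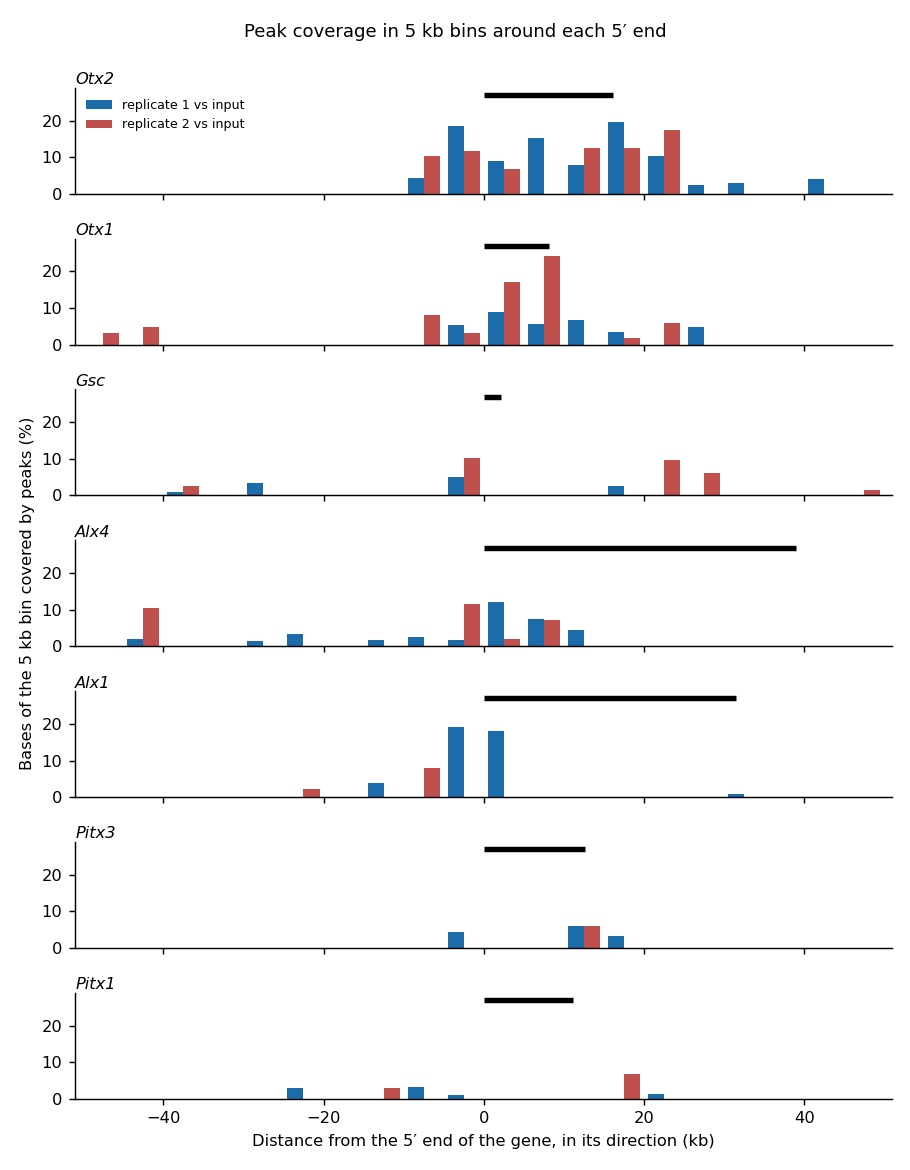
Percent of each 5 kb bin covered by peaks against the distance from the 5′ end in kb, in the direction of the gene, for replicates 1 (blue) and 2 (red) called against input. Black bars mark the gene body. Coverage at Otx2 and Otx1 centres on the gene, and the 2 replicates fill different bins at Alx1.

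The DNA of most member loci was rich in CpG, which the choice of members had not used. Over the locus, Otx1 had 3.85 CpG per 100 bases, above 99.9% of protein-coding loci, followed by Gsc with 3.35, Pitx1 with 2.93, Otx2 with 2.38 and Pitx3 with 2.35. Alx4 had 1.58 and Alx1 1.01, and the median of protein-coding loci was 1.16. Pitx1, the least covered member, ranked next to Gsc in CpG content, above 98.8% of loci. Alx1, covered in replicate 1 alone, was below the median. Within 1 kb of the 5′ end, CpG content was above 54.7% (Alx1) to 93.8% (Gsc) of protein-coding genes, with Otx2 above 67.3%. There Pitx1, Pitx3, Otx1, Otx2 and Gsc ranked lower than over the locus, and Alx1 and Alx4 ranked higher.

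Within their peaks, members had 2.49 CpG per 100 bases in replicate 1, 3.02 against IgG and 4.10 in replicate 2, while all peaks of the lists had 1.35, 1.44 and 1.13. The Otx1 and Gsc peaks had more CpG per base than the loci around them in each list, from 5.24 to 7.29 per 100 bases. So did the Alx4 peaks, at 1.70, 2.52 and 3.19, compared with 1.58 over the locus. Alx1 peaks had 1.57 in replicate 1 and 2.02 against IgG, compared with 1.01. The peaks of Otx2 had 2.30 in replicate 1 and 2.33 against IgG, close to the 2.38 of its locus, and 2.92 in replicate 2. Pitx1 peaks had 0 in replicate 1 and 4.13 against IgG, compared with 2.93. At Pitx3 the peaks had less than the locus in each list, at 1.34, 1.59 and 1.95.

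**Figure D5:**
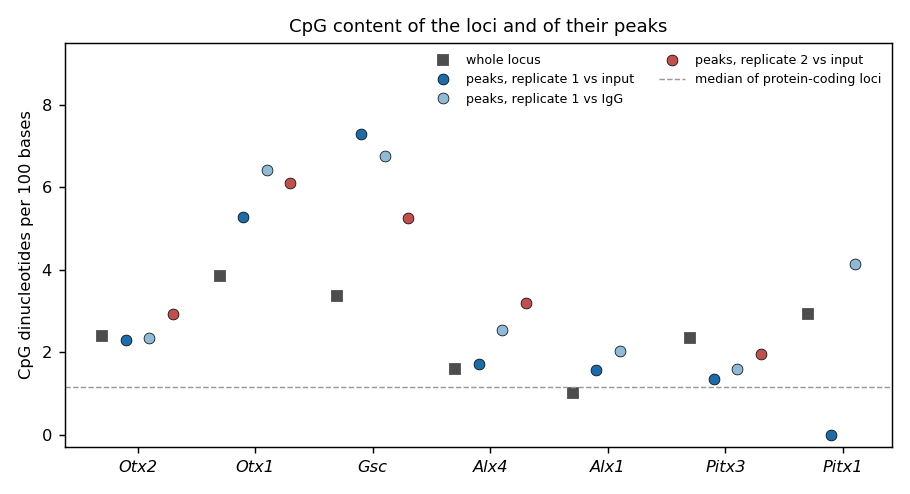
CpG dinucleotides per 100 bases in the whole locus (grey squares) and within the peaks of each list (circles), by member, with the median of protein-coding loci as a dashed line. Peaks of Otx1 and Gsc lie at 5.24 or higher and above their loci, and no circle is drawn for replicate 2 at Alx1 and Pitx1, which had no peak.

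Other homeobox genes of the paired type were compared to place these families. Of 21 genes found in the annotation, 12 had a peak in both replicates, against 5 of 7 members and 15.7% of protein-coding loci. A peak within 1 kb of the 5′ end in both replicates was present at 4 of the 21 and at 0 of the 7, and a joined domain at 3 of each. Among them Otp, a hypothalamic gene, had a mean of 11.7% ± 0.793 (SD, n = 2) and Uncx, a gene of the sclerotome, one of 6.22% ± 3.29. Gsc2, a close relative of Gsc, had 1.83% ± 1.46, which differed from the 3.14% of Gsc by less than the SD of either gene. Crx, the retinal relative of Otx1 and Otx2, had 0% in both replicates and 1 peak against IgG.

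The genes most like Otx2 in covered share, among 7987 of similar locus length, were Six3, Otp and Gm28230. Likeness was measured over 2 libraries, as the larger of the differences in covered share between replicates of the same number. It was 1.08 percentage points for Six3, a forebrain and eye gene with 12.7% and 9.85%, then 2.62 for Otp and 2.96 for Gm28230.

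The files hold no RNA, so the tissue could not be checked by expression. Of 13 dental mesenchyme marker genes 7 had a peak in both replicates, and of 9 dental epithelium markers 3 did. The share over all protein-coding loci was 15.7%. The median of the mean covered share was 0.479% and 0.0923% for these marker lists, and 2.38% for the members. A peak count at marker genes does not tell which cells were present. The paired-type list shares 1 gene with the epithelium list, and Prrx1 and Prrx2 with the mesenchyme list. None of 8 broadly expressed control genes had a peak in both, while 1 had one against IgG and 2 in replicate 2.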

How the data were processed

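The authors aligned the reads of the 5 libraries to mouse GRCm38 with BWA, retained unique alignments and sorted them with SAMtools. BWA, SAMtools and Partek are named without a version in the submitters' processing notes. Broad peaks were called by the authors with MACS 2.1.1.20160309 at a p-value cutoff of 0.005, on each library separately, with 1 tag kept per position and strand. Per the file headers, replicate 1 had tags of 49 bp and a modelled fragment of 46 bp, and replicate 2 had 74 bp and 71 bp. This modelled length is shorter than a tag and equals the shortest peak of each list. Its effect on peak width was not tested. The authors deposited for each peak a pileup signal, its mean tag coverage after the larger library of a pair was scaled to the smaller. In the deposited lists, fold enrichment is a ratio of pileup to control background, with a pseudocount added by MACS. The deposited p-values are on a −log10 scale. The lowest pileup in a list corresponded to 4 tags in replicate 1 and 6 in replicate 2, so the position of a single peak is subject to counting error.

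Peak positions were compared with GENCODE M21 gene models and the GRCm38.p6 sequence in Python 3.11.15 with pandas 2.3.3 and numpy 2.4.6, and plots were drawn with matplotlib 3.10.9. A locus was a gene and its flanks of 5 kb, an overlap was at least 1 base, and a domain held at least 3 peaks no more than 5 kb apart. Percentiles are shares of the 21938 protein-coding loci with a lower value. The counting was checked on made-up peaks. The 7 members and all gene lists were chosen with earlier results of these data known. All 7 members were named, with genes within 5 kb of them, 4 close relatives, the 3 other paired-type genes of highest mean covered share, and the 3 genes most like the most covered member (locus length within 1.5 times). Some genes named by this rule are not reported here. Of 22 other paired-type genes 21 were found in the annotation. With 2 libraries of 1 condition no test was made. Alternatives were a stricter peak threshold, IgG as the control, a replicate 2 list of equal size, other flanks, overlaps and merging distances, and each replicate alone.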

Additional observations from a re-analysis of the deposited data

How the results depend on the processing

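The main values were a mean of 35.5 ± 17.7 peaks at the members (SD, n = 2), 5 members with a peak in both replicates, 0 with one within 1 kb of the 5′ end in both, a median covered share of 2.54% ± 0.607 (SD, n = 2), 6 replicate 1 peaks overlapped by replicate 2, and 3 members in a domain in both. A fold enrichment of 3 or higher gave 4.5 peaks, 0 members with a peak in both, a median of 0%, 0 overlapped peaks and 0 members in a domain. A −log10 p of 3 or higher gave 2.5 peaks, 0 members, a median of 0%, 0 overlapped peaks and 0 in a domain. Both settings keep few peaks by construction. They lowered the covered share of Pitx3, Otx1, Otx2, Gsc and Alx4 by more than the spread between replicates. Calling replicate 1 against IgG gave 1 member with a peak at the 5′ end in both, Otx2, and a median of 3.20%. The gene body alone gave a mean of 17 peaks over the replicates, and 2 of its replicate 1 peaks were overlapped by replicate 2. It lowered the mean covered share of Gsc from 3.14% to 0%. Otx1 then had 14.3% ± 8.71 and Otx2 9.23% ± 1.02 (SD, n = 2), so their order was reversed. Allowing 5 kb from the 5′ end gave 4 members, and any transcript start gave 3. Counting peaks at most 1 kb apart as shared gave 22. Each replicate alone gave 23 to 48 peaks, 1 to 2 members with a peak at the 5′ end and 3 to 5 in a domain, and no value for the overlap. A replicate 2 list of equal size, flanks of 10 kb, merging at 3 or 10 kb and a stricter overlap kept each of these counts within 1.5 times. Within that range, flanks of 10 kb raised the members with a peak in both replicates from 5 to 7, adding Alx1 and Pitx1. The list of equal size lowered the members in a domain in both from 3 to 2. The cause of these differences was not tested. No paired analysis was possible because there is 1 condition. Thin tag support and short modelled fragments limit what single peaks show at all 7 members. Near the lowest pileup of the list lay 26 of 48 member peaks in replicate 1, 31 of 56 against IgG and 13 of 23 in replicate 2.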
